A study of Mus musculus with 10 samples.

Results

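The interferon response and antigen presentation genes described here were 39 genes of the mouse lens, taken as a named list. Of these, 12 served antigen presentation by class I molecules, 7 were regulators of transcription in the interferon pathway and 20 were interferon-induced effectors. Each gene was represented by its brightest probe set carrying only that gene's symbol, by the mean over all 10 arrays. Such a probe set was found for 37 of the 39 genes, and 35 were bright enough to be tested, among 13450 tested of 18193 genes named on the array. Ifih1 and Mx2 fell below the signal filter, and Psme2 and Isg15 had probe sets shared with another gene. Whole lenses were compared in 4 groups. Lenses labelled Klf4CN carried a conditional null allele of Klf4, which encodes a zinc finger transcription factor, and were taken at postnatal day 56 (PN56) or embryonic day 16.5 (E16.5). Wild type (WT) lenses were taken at the same ages. Each PN56 array held lenses pooled from 3 young adults, with 2 arrays per genotype, and each E16.5 array held lenses pooled from 5 embryos, with 3 arrays per genotype. Neither the strain nor the Cre driver is stated in the labels, and the pools hide the spread between animals.

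Interferons are secreted proteins that bind receptors on the cell surface and act through Jak kinases. The kinases activate transcription factors such as Stat2, which joins Irf9, and these switch on genes whose products block viral replication. Part of that programme is antigen presentation, in which peptides cut by the proteasome are carried into the endoplasmic reticulum and shown at the cell surface by class I heavy chains paired with beta-2 microglobulin. The lens has no blood vessels of its own in the adult, is enclosed in a capsule and lies in a part of the eye known for restrained immune responses.

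Values were linear signals scaled array by array, and differences below are of log2(signal + 16), so that the change of a dim gene is understated. Median signals were 91.0 to 108.6 on PN56 arrays and 63.0 to 76.9 on E16.5 arrays. Lens markers such as crystallins summed to 348339 and 364718 in PN56 Klf4CN lenses, against 478197 and 525841 in PN56 WT lenses, and 6 of 7 were lower in Klf4CN by limma. Klf4 itself had signals of 731.8 and 702.2 in PN56 lenses labelled Klf4CN, against 156.5 and 213.5 in PN56 WT lenses (log2 difference 1.88, limma adjusted p = 0.0041). It was thus higher, not lower, in lenses labelled Klf4CN at PN56, and every direction below is that of the lenses so labelled. At E16.5 its log2 difference was 0.59 and not past the test. The labels do not say which exons were deleted, so this probe set may not read the deletion. The 5-prime part of 18S ribosomal RNA read 5700.1 to 11005.1 in PN56 Klf4CN lenses against 527.5 to 2870.0 in PN56 WT lenses. At E16.5 it read 20896.7 to 22775.7 in Klf4CN lenses against 1155.3 to 2412.8 in WT lenses, and its part in the results was not tested. A poly-A spike, dap, read 2.6 to 59.1 on PN56 arrays and 4908.4 to 7005.3 on E16.5 arrays, so the effects of age, preparation and number of animals pooled cannot be told apart.

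Promoters are shown for H2-D1, B2m, Rsad2 and H2-K1, the 4 members that passed the test in PN56 lenses, because 3 of them encode chains of class I molecules. Each window is the 250 bases before the transcription start, from RefSeq on build GRCm38.p6, in the gene's direction. Capitals mark matches on either strand to AANNGAAA, the core bound by interferon regulatory factors. The H2-D1 window is chr17:35262844-35263093 on the plus strand, that of B2m chr2:122147437-122147686 on the plus strand, that of Rsad2 chr12:26456453-26456702 on the minus strand and that of H2-K1 chr17:34000348-34000597 on the minus strand. H2-K1 has 2 annotated starts 14 bases apart, and the window of the more upstream one is shown.
H2-D1: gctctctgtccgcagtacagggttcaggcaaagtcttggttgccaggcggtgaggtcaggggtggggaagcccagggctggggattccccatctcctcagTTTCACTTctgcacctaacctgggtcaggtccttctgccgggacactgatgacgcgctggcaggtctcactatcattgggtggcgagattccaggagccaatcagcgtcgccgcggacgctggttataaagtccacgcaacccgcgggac
B2m: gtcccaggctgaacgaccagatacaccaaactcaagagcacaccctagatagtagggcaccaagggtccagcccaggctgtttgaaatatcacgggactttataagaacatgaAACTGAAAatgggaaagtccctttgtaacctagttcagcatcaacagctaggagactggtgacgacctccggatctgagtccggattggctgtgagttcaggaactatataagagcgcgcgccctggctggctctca
Rsad2: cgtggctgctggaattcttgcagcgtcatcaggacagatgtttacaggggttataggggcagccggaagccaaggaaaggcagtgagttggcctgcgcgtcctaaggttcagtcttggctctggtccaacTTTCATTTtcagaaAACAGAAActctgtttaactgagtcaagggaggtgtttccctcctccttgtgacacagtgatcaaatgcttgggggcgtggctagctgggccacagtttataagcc
H2-K1: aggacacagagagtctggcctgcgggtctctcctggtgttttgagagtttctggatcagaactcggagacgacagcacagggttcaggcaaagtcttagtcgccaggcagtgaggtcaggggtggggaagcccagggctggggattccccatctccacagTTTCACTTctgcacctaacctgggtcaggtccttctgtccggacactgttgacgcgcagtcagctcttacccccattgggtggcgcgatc
H2-D1 and H2-K1 held the same run, TTTCACTT, 150 to 143 and 90 to 83 bases before their starts. The core of B2m, AACTGAAA, stood 137 to 130 bases before the start, and Rsad2 held a match on each strand, TTTCATTT and AACAGAAA.

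Promoters were matched for 33 of the 39 members. The core AANNGAAA was present in 9 of 15 promoters of interferon-induced members (60%), in 3 of 11 of antigen presentation members (27.3%) and in 2 of 7 of regulators (28.6%), against 23.9% of 27025 genes with a promoter. GAAANNGAA, taken from the interferon-stimulated response element and able to overlap that core, was present in 9 of 15 interferon-induced members (60%), 2 of 11 antigen presentation members (18.2%) and 2 of 7 regulators (28.6%), against 8.18% of all genes. It was found in the windows of B2m and Rsad2. The gamma-activated site TTCNNNGAA was present in 3 of 7 regulators, 4 of 15 interferon-induced members and 1 of 11 antigen presentation members, against 8.13% of all genes. CACCC, the box that Kruppel-like factors bind, was present in 10 of 11 antigen presentation members, 6 of 7 regulators and 10 of 15 interferon-induced members, against 54.5% of all genes, and was absent from the Rsad2 window. Both strands were searched, matches of different motifs can overlap, a gene with several starts counted once, and a match is a description of letters only.

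The first comparison asked how Klf4CN lenses differed from WT lenses in young adults. Among the tested members, 4 of 35 were higher in PN56 Klf4CN lenses and 0 were lower by limma, against 6.04% higher and 6.97% lower (13.0% in all) among the genes tested. Of the 4, B2m, H2-D1 and H2-K1 encode the light chain and heavy chains of class I molecules, and Rsad2 encodes the antiviral enzyme viperin. By group, 3 of 11 antigen presentation members, 0 of 7 regulators and 1 of 17 interferon-induced members were higher. The median log2 difference was 0.27 for antigen presentation, -0.04 for regulators and 0.35 for interferon-induced members, against -0.06 for all genes tested. Both Klf4CN arrays stood above both WT arrays for 13 tested members and below for 4, against 21.7% and 29.0% of all genes.

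B2m, the light chain shared by all class I molecules, had signals of 2953.1 and 4973.8 in PN56 Klf4CN lenses, against 1201.9 and 1433.7 in PN56 WT lenses. The groups did not overlap, and the mean was 3963 ± 1429 in Klf4CN and 1318 ± 164 in WT lenses (SD, n = 2 each). The log2 difference was 1.53 ± 0.24 (SE, limma adjusted p = 0.0018), and a second probe set gave 1.56. B2m passed the test under each of the 21 alternatives, with log2 differences from 1.16 to 1.91.

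H2-D1, a class I heavy chain, had signals of 963.4 and 937.8 in PN56 Klf4CN lenses, against 347.4 and 285.2 in PN56 WT lenses. Every Klf4CN array was above every WT array, and the log2 difference was 1.55 ± 0.23 (SE, limma adjusted p = 0.0015). The 3 other H2-D1 probe sets above the filter gave 0.85, 1.12 and 1.23. With the mean of all its probe sets, most of them below the filter, the difference was 0.53 and did not pass.

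H2-K1, the other heavy chain among the members, had signals of 1289.7 and 1008.5 in PN56 Klf4CN lenses, against 343.1 and 743.8 in PN56 WT lenses. The groups did not overlap, but the WT arrays were far apart. The log2 difference was 1.15 ± 0.32 (SE, limma adjusted p = 0.033). Without PN56 WT replicate 1 it was 0.61 and did not pass. It also did not pass without PN56 Klf4CN replicate 1 (0.97) or replicate 2 (1.32). The 3 other H2-K1 probe sets gave 0.69, 0.31 and -0.47. The heavy chain probe sets used are of a kind that can bind related transcripts, so signal of H2-D1, H2-K1 and other class I genes may be mixed.

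Rsad2 had signals of 97.9 and 45.1 in PN56 Klf4CN lenses, against 9.1 and 13.9 in PN56 WT lenses, where it was below the offset of 16. The log2 difference was 1.61 ± 0.41 (SE, limma adjusted p = 0.025). It was 2.46 with an offset of 1, and 0.82 and not past the test with an offset of 64. It did not pass without PN56 Klf4CN replicate 1 (1.16) or PN56 WT replicate 1 (1.48). The 2 other Rsad2 probe sets were lower in Klf4CN, at -0.54 and -0.59, so the direction for Rsad2 rested on 1 of 3 probe sets.

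**Figure D1:**
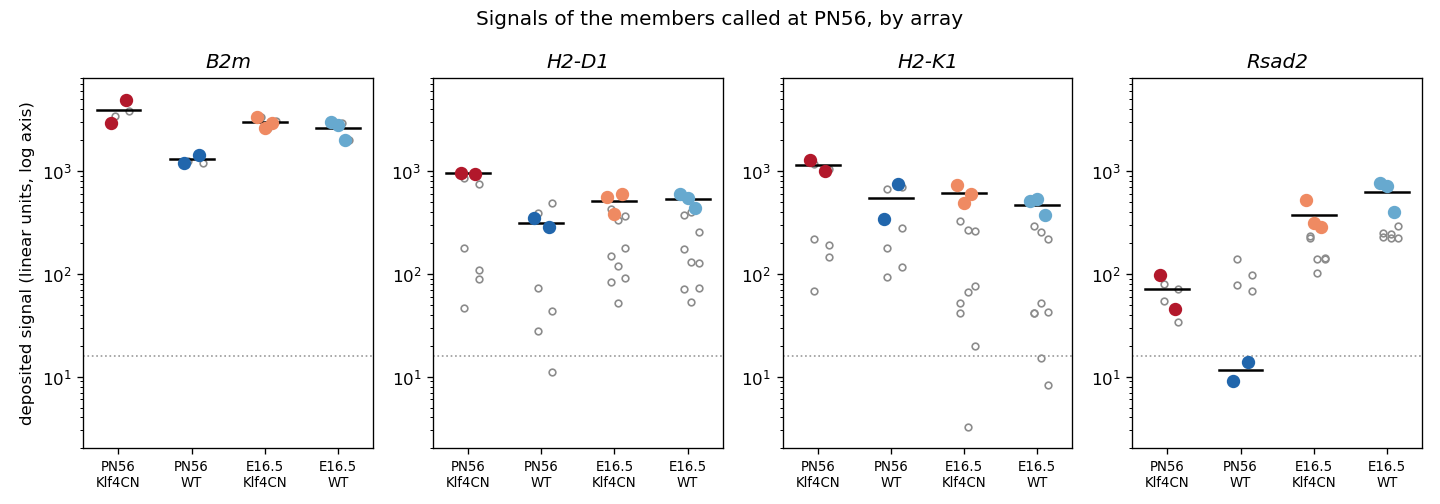
Deposited signals (linear units on a log axis) of B2m, H2-D1, H2-K1 and Rsad2 on each of the 10 arrays, for PN56 Klf4CN, PN56 WT, E16.5 Klf4CN and E16.5 WT lenses from left to right. Filled points are the probe set used, with the group mean as a bar, open points are other single-symbol probe sets above the filter, and the dotted line is the offset of 16. PN56 Klf4CN points lie above PN56 WT points for all 4 genes in the probe set used, while the open Rsad2 points lie the other way.

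Of the other antigen presentation members, 0 passed the test at PN56 and their log2 differences ran from -0.68 (Psmb8, an immunoproteasome subunit) to 0.74 (Tap1, a peptide transporter subunit). These are of the probe sets used. A further Erap1 probe set gave 1.15 without overlap, against -0.10 in the one used. Psmb10, another immunoproteasome subunit, had signals of 257.9 and 462.1 in PN56 Klf4CN lenses, against 295.1 and 192.0 in PN56 WT lenses. These overlapped, and the log2 difference of 0.51 did not pass (limma adjusted p = 0.23), although it was 0.91 and past the test without PN56 Klf4CN replicate 1. Tapbp, which loads peptides onto class I molecules, had signals of 2146.3 and 1612.1 in PN56 Klf4CN lenses, against 2036.4 and 2164.2 in PN56 WT lenses. Psme1, a proteasome activator subunit, had signals of 3057.3 and 3615.6 in PN56 Klf4CN lenses, against 3519.1 and 3329.8 in PN56 WT lenses. For both genes the groups overlapped in the probe sets used, with log2 differences of -0.17 and -0.04. A further Tapbp probe set, which was dimmer, gave 0.36 without overlap. The median of the antigen presentation members was 0.56 without PN56 Klf4CN replicate 1 and 0.03 without replicate 2.

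At PN56 an unadjusted p under 0.05 was found for 8 of the 35 tested members, against 3841 of the 13450 genes tested. No regulator passed the test at PN56, and 1 of 7 had an unadjusted p under 0.05. That 1 was Irf8, a factor best known in myeloid cells, with signals of 158.7 and 137.0 in PN56 Klf4CN lenses, against 254.4 and 317.1 in PN56 WT lenses. The Klf4CN arrays were lower without overlap, and the log2 difference of -0.88 had a limma adjusted p of 0.082. Irf9, the partner of Stat2, had signals of 460.3 and 435.9 in PN56 Klf4CN lenses, against 304.9 and 337.3 in PN56 WT lenses. These groups did not overlap either, at 0.46 (limma adjusted p = 0.21). Irf1, Irf2, Irf3, Irf7 and Stat2 overlapped between the groups in the probe sets used, with log2 differences from -0.27 for Irf2 to 0.26 for Stat2. The other Irf3 probe sets above the filter, which were dimmer, stood below without overlap, at -0.845 and -1.95.

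Of the other 16 interferon-induced members tested, 0 passed at PN56, and 3 had an unadjusted p under 0.05, against 3841 of 13450 genes. Ifitm3, which hinders entry of viruses, had signals of 2592.4 and 2340.2 in PN56 Klf4CN lenses, against 1164.9 and 1490.5 in PN56 WT lenses. The groups did not overlap, and the log2 difference of 0.89 just missed the threshold (limma adjusted p = 0.063), passing in 4 of 21 alternatives. Oasl2, of the oligoadenylate synthetase family, had signals of 204.2 and 236.5 in PN56 Klf4CN lenses, against 89.0 and 111.8 in PN56 WT lenses (1.03, limma adjusted p = 0.15). Usp18, a protease that removes Isg15 from proteins and dampens receptor signalling, had signals of 593.1 and 646.9 in PN56 Klf4CN lenses, against 294.6 and 455.1 in PN56 WT lenses (0.73, limma adjusted p = 0.16). Neither gene overlapped between genotypes. Ifi27, an interferon-inducible gene, ran the other way without overlap, with signals of 1040.9 and 1032.8 in PN56 Klf4CN lenses, against 1420.9 and 1500.1 in PN56 WT lenses (-0.49, limma adjusted p = 0.22). Ifi35 had signals of 1507.2 and 1445.5 in PN56 Klf4CN lenses, against 1502.7 and 889.4 in PN56 WT lenses, and its groups overlapped. Of its dimmer probe sets, 1 gave 0.96 without overlap and 1 gave -0.49 with overlap. The remaining members ran from -0.98 for Mx1, a GTPase that blocks viral replication, to 0.78 for Eif2ak2, which encodes the RNA-sensing kinase PKR.

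**Figure D2:**
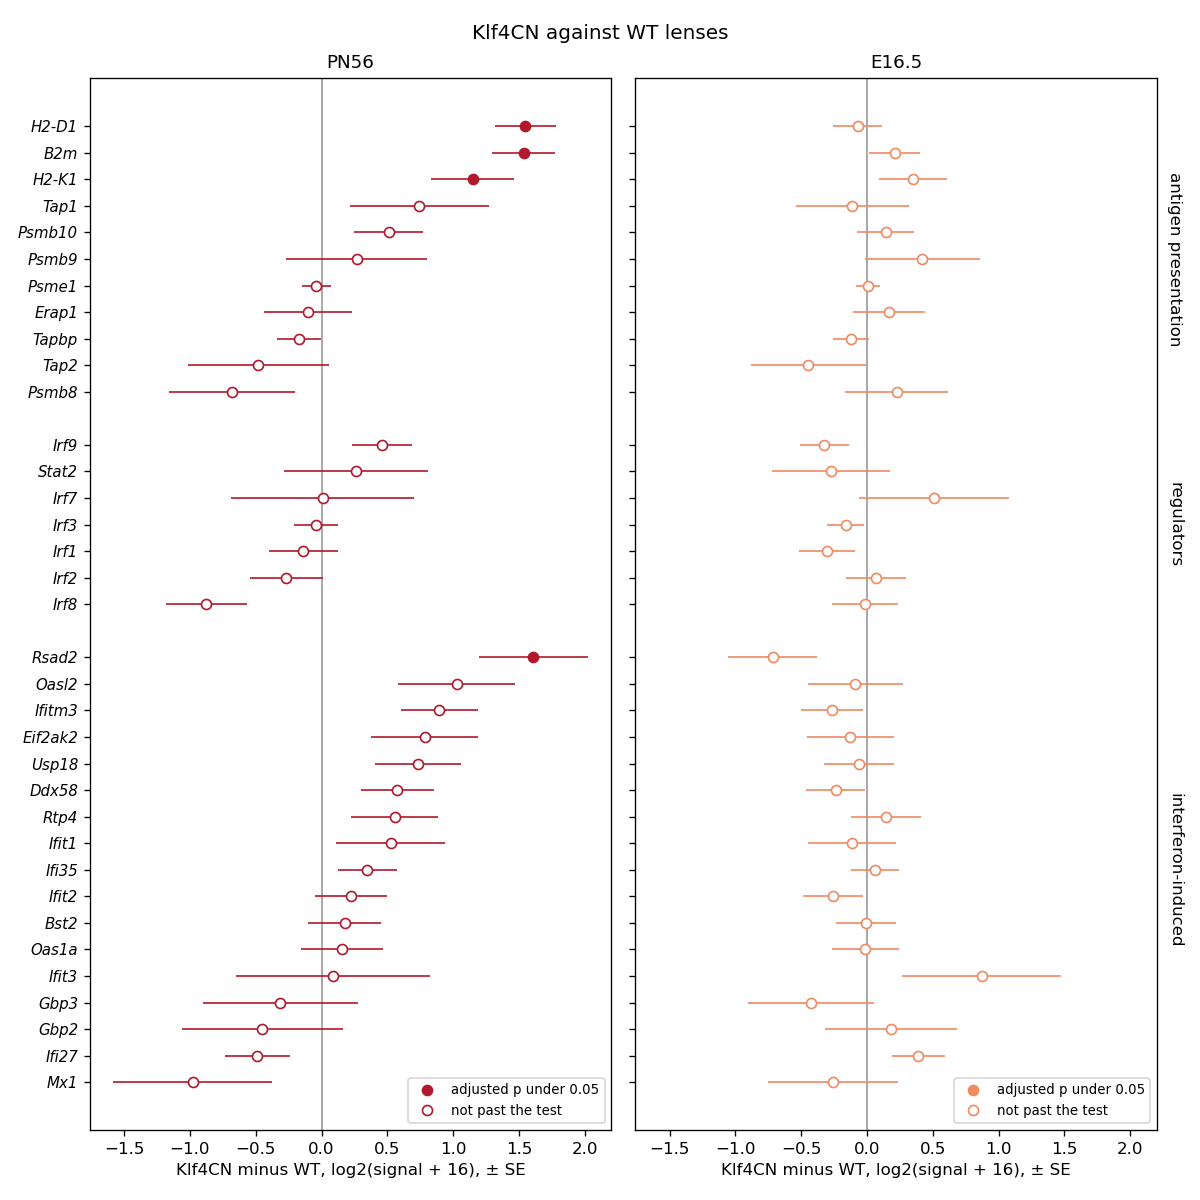
Log2 difference of Klf4CN minus WT lenses, in log2(signal + 16) with bars of ± SE, for the 35 tested members at PN56 (left) and E16.5 (right), grouped as antigen presentation, regulators and interferon-induced. Filled points passed at a limma adjusted p under 0.05. H2-D1, B2m, H2-K1 and Rsad2 are filled at PN56, and no point is filled at E16.5.

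Other genes of the pathway came from 5 further lists holding 61 genes, of which 53 were tested. At PN56, 4 were higher in Klf4CN lenses (7.55%) and 1 was lower (1.89%) by limma, against 6.04% and 6.97% of all genes, so the share of higher calls was near that of all genes. The median log2 difference was -0.04. H2-Eb1, a class II chain, had signals of 566.1 and 445.4 in PN56 Klf4CN lenses, against 278.1 and 88.3 in PN56 WT lenses (1.57, limma adjusted p = 0.025, and 0.82 and not past the test without PN56 WT replicate 2). Canx, which encodes the chaperone calnexin that holds new class I chains, was higher by 0.62 (limma adjusted p = 0.0029) and passed under each of 21 alternatives. Ly6e, an interferon-induced surface protein, was higher by 1.29 (limma adjusted p = 0.014), and by 0.87 and not past the test without PN56 WT replicate 1. Of the receptors and kinases, Ifnar2, a chain of the type I interferon receptor, was higher by 0.50 (limma adjusted p = 0.038) and passed in 8 of 21 alternatives. Jak1, a kinase bound to that receptor, was lower, with signals of 1088.8 and 866.2 in PN56 Klf4CN lenses, against 1746.1 and 1606.7 in PN56 WT lenses (-0.78, limma adjusted p = 0.010). It was not past the test without PN56 Klf4CN replicate 2 (-0.61) or PN56 WT replicate 1 (-0.72). Of the 11 tested sensors and adaptors and the 8 negative regulators, 0 passed at PN56, with 0 and 1 at an unadjusted p under 0.05. Among all genes tested, 3841 of 13450 had such a p.

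Class I molecules and interferon-induced genes are also expressed by leukocytes, so 15 markers of macrophages and other leukocytes were set beside these results. At PN56, 2 of the 13 tested were higher in Klf4CN lenses, with a median log2 difference of -0.04. Cd68, a lysosomal protein of macrophages, had signals of 268.7 and 230.4 in PN56 Klf4CN lenses, against 8.1 and 48.9 in PN56 WT lenses (2.74, limma adjusted p = 0.0022). Tyrobp, a signalling adaptor of myeloid cells, had signals of 165.5 and 125.7 in PN56 Klf4CN lenses, against 5.7 and 25.1 in PN56 WT lenses (2.42, limma adjusted p = 0.00063). C1qa and C1qb, which encode complement chains made by macrophages, also stood above without overlap but missed the threshold (limma adjusted p = 0.089 and 0.072). The log2 difference of C1qa was 0.67, and C1qb had signals of 578.1 and 265.4 in PN56 Klf4CN lenses, against 151.9 and 233 in PN56 WT lenses. Mrc1, a mannose receptor of macrophages, stood below without overlap, at -0.49 (limma adjusted p = 0.15). Itgam and Cd3e were below the filter. Csf1r and Adgre1, which define macrophages, overlapped between genotypes, and Ptprc, found on all leukocytes, ran from 37.9 to 66.7 in PN56 Klf4CN lenses and from 23.1 to 123.0 in PN56 WT lenses. The summed signal of the list was 4481 and 2529 in PN56 Klf4CN lenses, against 2575 and 2820 in PN56 WT lenses. Of the 2 Klf4CN arrays, replicate 1 had the higher sum and the higher H2-D1, H2-K1 and Rsad2 signals, while B2m was higher on replicate 2. The order of 2 arrays cannot show a link, and the H2-D1 signals were close (963.4 and 937.8). Endothelial markers summed to 405 and 509 in PN56 Klf4CN lenses, against 387 and 573 in PN56 WT lenses, and 1 of 7 was called, Tie1, an endothelial receptor, which was lower (-1.19, limma adjusted p = 0.034). Pigment cell markers summed to 2721 and 2490 in PN56 Klf4CN lenses, against 5574 and 7265 in PN56 WT lenses. Of these, 5 of 5 had log2 differences below 0 and 4 did not overlap, with 0 past the test. The part of these cells in the members' values was not tested, and in whole lenses fewer cells of a type and less RNA per cell cannot be told apart.

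The same comparison in the embryo found no called member. At E16.5, 0 of 35 members passed in either direction and 0 had an unadjusted p under 0.05, while limma called 1 gene of all tested (0.00743%) and 606 had an unadjusted p under 0.05. Median log2 differences were 0.14 for antigen presentation, -0.16 for regulators and -0.09 for interferon-induced members, against -0.0001 for all genes. B2m had signals of 3404.3, 2655.4 and 2944.7 in E16.5 Klf4CN lenses, against 3021.5, 2837.3 and 2005.5 in E16.5 WT lenses. H2-D1 had 556.5, 381.6 and 593.5 in E16.5 Klf4CN lenses, against 604.1, 554.0 and 440.2 in E16.5 WT lenses. Both genes overlapped between genotypes, with log2 differences of 0.21 and -0.07. H2-K1 had signals of 733.5, 493.0 and 593.8 in E16.5 Klf4CN lenses, against 509.9, 539.0 and 371.8 in E16.5 WT lenses (0.35). Rsad2 had signals of 520.5, 309.9 and 287.7 in E16.5 Klf4CN lenses, against 767.1, 712.7 and 397.1 in E16.5 WT lenses (-0.72). These groups overlapped too. Psmb9 and Psmb10 were the 2 tested members whose Klf4CN arrays all lay above the WT arrays, and 0 tested members lay below, against 5.15% and 6.65% of all genes. Of the members below the filter, Ifih1 lay above and Mx2 below. Of the other pathway lists, 0 of 53 passed, with 3 at an unadjusted p under 0.05. Markers of pigment cells and retina were on the higher side in E16.5 Klf4CN lenses, with medians of 1.92 and 1.65 and 0 past the test (5 of 5 and 4 of 7 at an unadjusted p under 0.05), and their part in the members' values was not tested.

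Whether the genotype difference itself changed with age was tested as PN56 minus E16.5. The difference was larger at PN56 for 3 of 35 members and smaller for 0 by limma, against 2.69% and 2.10% of all genes (4.79% in either direction). For H2-D1 it was 1.62 ± 0.30 (SE, limma adjusted p = 0.013), for B2m 1.33 ± 0.31 (SE, limma adjusted p = 0.031) and for Rsad2 2.32 ± 0.53 (SE, limma adjusted p = 0.030). For H2-K1 it was 0.80 (limma adjusted p = 0.30), a call missed with all arrays and made without PN56 WT replicate 2 (1.34). The H2-D1 call was lost when all probe sets of a gene were averaged (0.59) and kept when any 1 array was left out. The B2m call was lost without any of 6 single arrays, with values from 0.95 (without PN56 Klf4CN replicate 2) to 1.32, and Rsad2 also without any of 6, from 1.87 to 2.22. Median values were -0.03 for antigen presentation, 0.12 for regulators and 0.41 for interferon-induced members, against -0.06 for all genes. With arrays centred on their median, the median of all genes shifted by 0.13 at PN56 and 0.17 for this difference, and B2m, H2-D1, H2-K1 and Rsad2 were still higher at PN56.

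More members differed by age than by genotype, which also held for all genes tested (13.0% called by genotype at PN56). In Klf4CN lenses 17 of 35 members were higher at PN56 than at E16.5 and 4 were lower by limma, against 21.6% and 30.5% of all genes (52.1% in either direction). In WT lenses 12 were higher and 6 lower, against 25.0% and 30.7% of all genes (55.6% in either direction). Interferon-induced members had median log2 differences of 1.28 in Klf4CN and 0.48 in WT lenses, antigen presentation members 0.36 and 0.11, and regulators 0.65 and 0.49, against -0.10 and -0.04 for all genes. These directions depended in part on scaling. Centring each array on its median moved the median of all genes by -0.34 in Klf4CN and by -0.52 in WT lenses. The WT medians were then -0.04 for interferon-induced members, -0.41 for antigen presentation and -0.03 for regulators, against -0.56 for all genes. In WT lenses 7 members were then called higher and 7 lower, in place of 12 and 6, against 1590 and 6407 of 13450 genes tested.

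Among the interferon-induced members, Usp18, Ifi27, Ifit1, Ifit2, Ifit3 and Ifi35 were higher at PN56 in both genotypes. Usp18 had signals of 593.1 and 646.9 in PN56 Klf4CN lenses against 41.1, 55.1 and 39.3 in E16.5 Klf4CN lenses. In WT lenses Usp18 had 294.6 and 455.1 at PN56 against 50.7, 45.6 and 46.1 at E16.5. The ages lay far apart. On the scale of signal + 16 the rise was 10.5-fold in Klf4CN (log2 3.39, limma adjusted p = 1.4e-06) and 6.03-fold in WT lenses (2.59, limma adjusted p = 1.2e-05), which understates the rise in signal. Ifi27 had signals of 1040.9 and 1032.8 in PN56 Klf4CN lenses against 210.7, 168.7 and 229.4 in E16.5 Klf4CN lenses. In WT lenses Ifi27 had 1420.9 and 1500.1 at PN56 against 191.8, 159.2 and 109.5 at E16.5. The log2 difference was 2.28 in Klf4CN (limma adjusted p = 4.0e-06) and 3.15 in WT lenses (limma adjusted p = 2.2e-07). Ifi35 had signals of 1507.2 and 1445.5 in PN56 Klf4CN lenses against 365.1, 319.8 and 312.0 in E16.5 Klf4CN lenses. In WT lenses Ifi35 had 1502.7 and 889.4 at PN56 against 334.8, 343.7 and 277.8 at E16.5. Its log2 difference was 2.10 in Klf4CN and 1.81 in WT lenses. The Ifit genes, whose products bind viral RNA, rose by log2 2.18 to 2.67 in Klf4CN and 1.68 to 2.97 in WT lenses.

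Ifitm3 had signals of 2592.4 and 2340.2 in PN56 Klf4CN lenses against 879.3, 612.2 and 1083.8 in E16.5 Klf4CN lenses (1.54, limma adjusted p = 0.00038). In WT lenses Ifitm3 had 1164.9 and 1490.5 at PN56 against 1159.2, 1288.8 and 685.2 at E16.5, which overlapped (0.38, limma adjusted p = 0.24). Oasl2 had signals of 204.2 and 236.5 in PN56 Klf4CN lenses against 100.8, 44.0 and 143.6 in E16.5 Klf4CN lenses (1.18, limma adjusted p = 0.027). Without E16.5 Klf4CN replicate 2 the Oasl2 value was 0.79 and did not pass, and it also did not pass without PN56 Klf4CN replicate 1 (1.28) or replicate 2 (1.08). In WT lenses Oasl2 overlapped between ages, with 89.0 and 111.8 at PN56 against 103.7, 113.4 and 70.9 at E16.5 (0.07). Ddx58, which encodes the RNA sensor RIG-I, and Eif2ak2 rose in Klf4CN lenses by 1.29 and 1.02, with WT values of 0.48 and 0.11 not past the test. Another Eif2ak2 probe set was higher at PN56 in both genotypes (1.28 in Klf4CN and 1.34 in WT lenses), and the remaining one was lower in both (-0.76 and -0.28). Gbp2, a guanylate-binding protein, rose in WT lenses by 1.91, with 1.28 in Klf4CN lenses not past the test. For Ifitm3, Oasl2, Ddx58, Eif2ak2 and Gbp2 the difference between genotypes was itself not past the test, although that of Ifitm3 passed without E16.5 WT replicate 3 (1.43).

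Rsad2 and Bst2 were lower at PN56 in both genotypes. Rsad2 fell to 97.9 and 45.1 in PN56 Klf4CN lenses, against 520.5, 309.9 and 287.7 in E16.5 Klf4CN lenses. In WT lenses it fell to 9.1 and 13.9 at PN56, against 767.1, 712.7 and 397.1 at E16.5. The log2 difference was -2.17 in Klf4CN (limma adjusted p = 0.00041) and -4.50 in WT lenses (limma adjusted p = 9.4e-07). The WT value is set by PN56 signals below the offset and ran from -5.62 to -2.33 over the alternatives. The 2 other Rsad2 probe sets were lower at PN56 by less, at -0.84 and -1.64 in Klf4CN and -1.03 and -1.48 in WT lenses. Bst2, which encodes tetherin, fell by 0.68 in Klf4CN (limma adjusted p = 0.041) and by 0.86 in WT lenses (limma adjusted p = 0.012) on the log2 scale. Gbp3 values of -0.83 and -0.95 did not pass, and Mx1, Oas1a and Rtp4 passed in neither genotype.

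**Figure D3:**
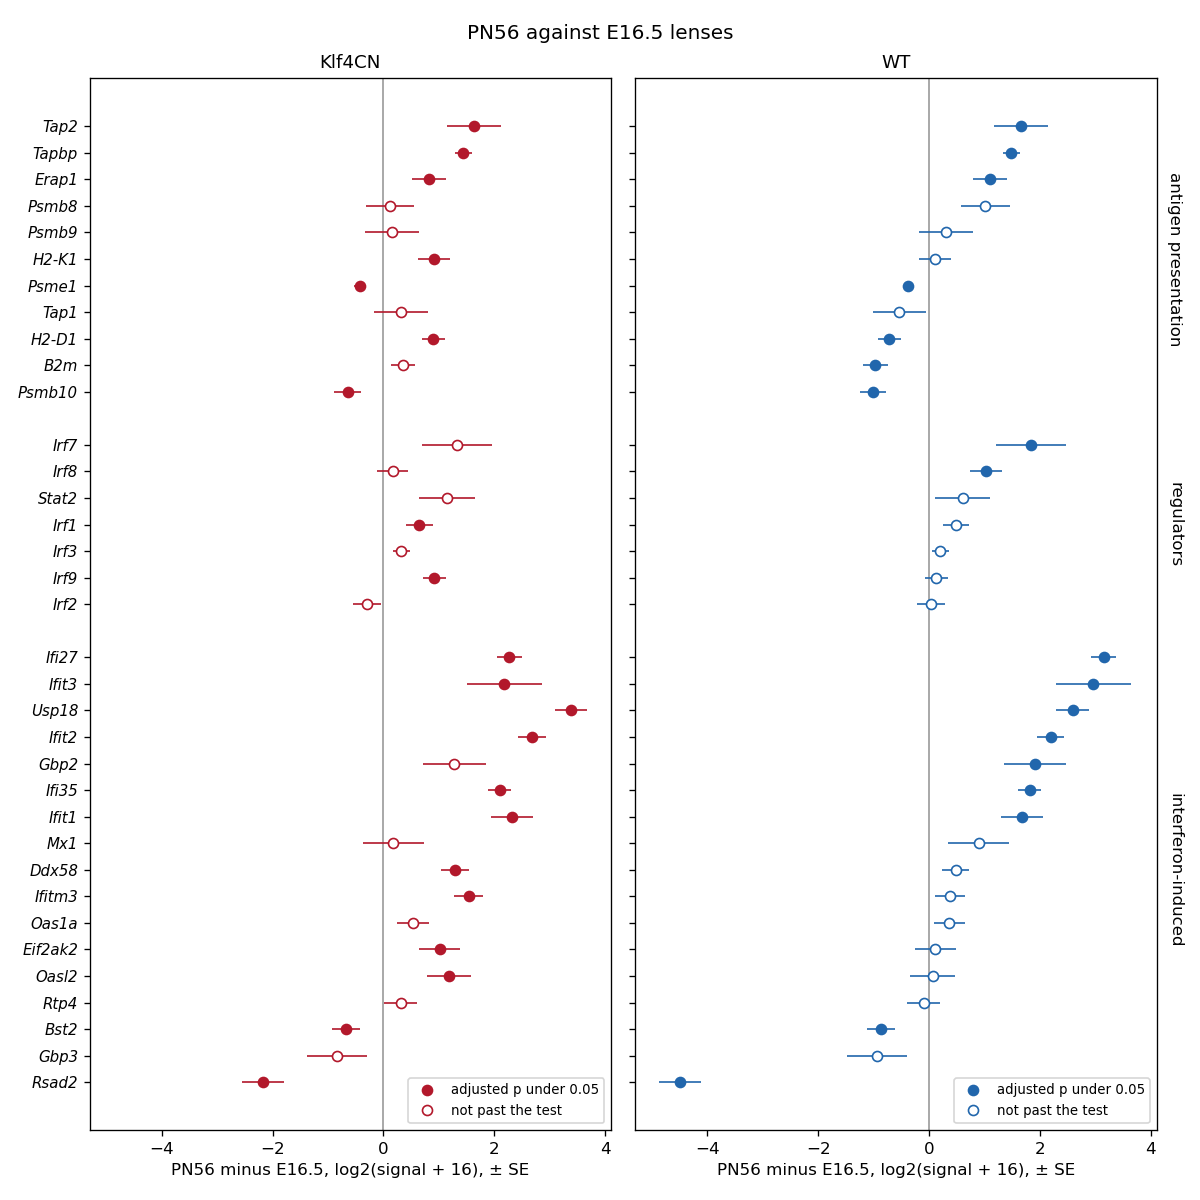
Log2 difference of PN56 minus E16.5 lenses, in log2(signal + 16) with bars of ± SE, for the 35 tested members in Klf4CN (left) and WT lenses (right), in the same 3 groups. Filled points passed at a limma adjusted p under 0.05. Usp18, Ifi27, Ifi35 and the Ifit genes lie to the right in both panels, and Rsad2 lies farthest to the left, at -2.17 in Klf4CN and -4.50 in WT lenses.

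The antigen presentation members did not move together with age. Tap2, a peptide transporter subunit, rose by log2 1.63 in Klf4CN and 1.66 in WT lenses, and Erap1, which trims peptides, rose by 0.83 and 1.10. Tapbp had signals of 2146.3 and 1612.1 in PN56 Klf4CN lenses against 594.9, 787.4 and 662.1 in E16.5 Klf4CN lenses (1.44, limma adjusted p = 7.9e-06). In WT lenses Tapbp had 2036.4 and 2164.2 at PN56 against 764.3, 720.8 and 734.3 at E16.5 (1.49, limma adjusted p = 5.3e-06). The ages did not overlap for Tapbp in either genotype. Psme1 had signals of 3057.3 and 3615.6 in PN56 Klf4CN lenses against 4653.4, 4518.7 and 4290.1 in E16.5 Klf4CN lenses. In WT lenses Psme1 had 3519.1 and 3329.8 at PN56 against 4493.3, 4674.1 and 4205.9 at E16.5. It was lower at PN56 in both, with log2 differences of -0.43 in Klf4CN and -0.38 in WT lenses (limma adjusted p = 0.0034 and 0.0070). Psmb10 had signals of 257.9 and 462.1 in PN56 Klf4CN lenses against 550.0, 524.6 and 577.8 in E16.5 Klf4CN lenses (-0.65, limma adjusted p = 0.041). In WT lenses Psmb10 had 295.1 and 192.0 at PN56 against 513.2, 468.1 and 511.7 at E16.5 (-1.01, limma adjusted p = 0.0036). The Klf4CN value for Psmb10 was -0.24 without PN56 Klf4CN replicate 1 and -1.05 without replicate 2, and the call was lost without any of 6 other arrays.

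Of the class I chains, H2-D1 was higher at PN56 than at E16.5 in Klf4CN lenses (log2 difference 0.90, limma adjusted p = 0.0032) and lower in WT lenses (-0.72, limma adjusted p = 0.012). The WT call was lost without PN56 WT replicate 2 (-0.58), and the Klf4CN call with arrays centred on their median (0.56). B2m was lower at PN56 in WT lenses (-0.97, limma adjusted p = 0.0024), while its Klf4CN value of 0.36 did not pass (limma adjusted p = 0.19) except without PN56 Klf4CN replicate 1 (0.73). H2-K1 was higher at PN56 in Klf4CN lenses, by 0.91 (limma adjusted p = 0.018), which was lost without PN56 Klf4CN replicate 1 (0.74) or E16.5 Klf4CN replicate 2 (0.77). Its WT value of 0.11 did not pass, and ran from -0.43 to 1.31 over the alternatives. The other H2-K1 probe sets above the filter were higher at PN56 in both genotypes. They ran from 0.54 to 2.71 in Klf4CN lenses and from 1.37 to 2.36 in WT lenses, so an H2-K1 rise particular to Klf4CN lenses rested on the probe set used. The other H2-D1 probe sets ran from -0.15 to 1.08 in Klf4CN lenses and from -1.24 to 0.38 in WT lenses. Tap1, Psmb8 and Psmb9 passed in neither genotype.

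Among the regulators, Irf9 rose with age in Klf4CN lenses and Irf8 in WT lenses. Irf9 had signals of 460.3 and 435.9 in PN56 Klf4CN lenses against 271.6, 193.4 and 230.4 in E16.5 Klf4CN lenses (0.92, limma adjusted p = 0.0027). In WT lenses Irf9 had 304.9 and 337.3 at PN56 against 251.0, 318.1 and 309.9 at E16.5, which overlapped (0.13). Irf8 had 254.4 and 317.1 in PN56 WT lenses against 130.7, 103.9 and 166.0 in E16.5 WT lenses (1.03, limma adjusted p = 0.0081). In Klf4CN lenses Irf8 had 158.7 and 137.0 at PN56 against 155.0, 110.9 and 126.6 at E16.5 (0.17, not past the test). The Irf8 call was lost without PN56 WT replicate 2 (0.88). For neither gene did the difference between genotypes pass (limma adjusted p = 0.15 and 0.25).

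Irf1, an activator of class I genes, had signals of 356.0 and 327.8 in PN56 Klf4CN lenses against 199.7, 240.2 and 197.9 in E16.5 Klf4CN lenses (0.65, limma adjusted p = 0.037). That call was lost without any of 4 single Klf4CN arrays, with values from 0.59 to 0.71. In WT lenses Irf1 had 320.8 and 444.9 at PN56 against 276.3, 324.9 and 206.5 at E16.5, which overlapped (0.49). Irf7, which drives interferon genes, had signals of 231.2 and 142.7 in PN56 WT lenses against 70.9, 76.2 and 5.4 in E16.5 WT lenses (1.83, limma adjusted p = 0.027). Without E16.5 WT replicate 3, the lowest array, its value was 1.15 and did not pass, nor did 1.51 without PN56 WT replicate 1. In Klf4CN lenses Irf7 had 199.0 and 168.7 at PN56 against 106.5, 24.8 and 83.0 at E16.5 (1.33, not past the test). Irf3, the partner of Irf7, had signals of 775.4 and 748.9 in PN56 Klf4CN lenses, 717.4 and 858.0 in PN56 WT lenses, 590.9, 683.1 and 548.0 in E16.5 Klf4CN lenses and 673.4, 619.8 and 750.2 in E16.5 WT lenses. Irf2, an antagonist of Irf1, had 368.4 and 242.1 in PN56 Klf4CN lenses, 424.5 and 311.1 in PN56 WT lenses, 337.8, 461.9 and 327.8 in E16.5 Klf4CN lenses and 429.1, 352.1 and 293.2 in E16.5 WT lenses. Irf2, Irf3 and Stat2 passed in no comparison as fitted.

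**Figure D4:**
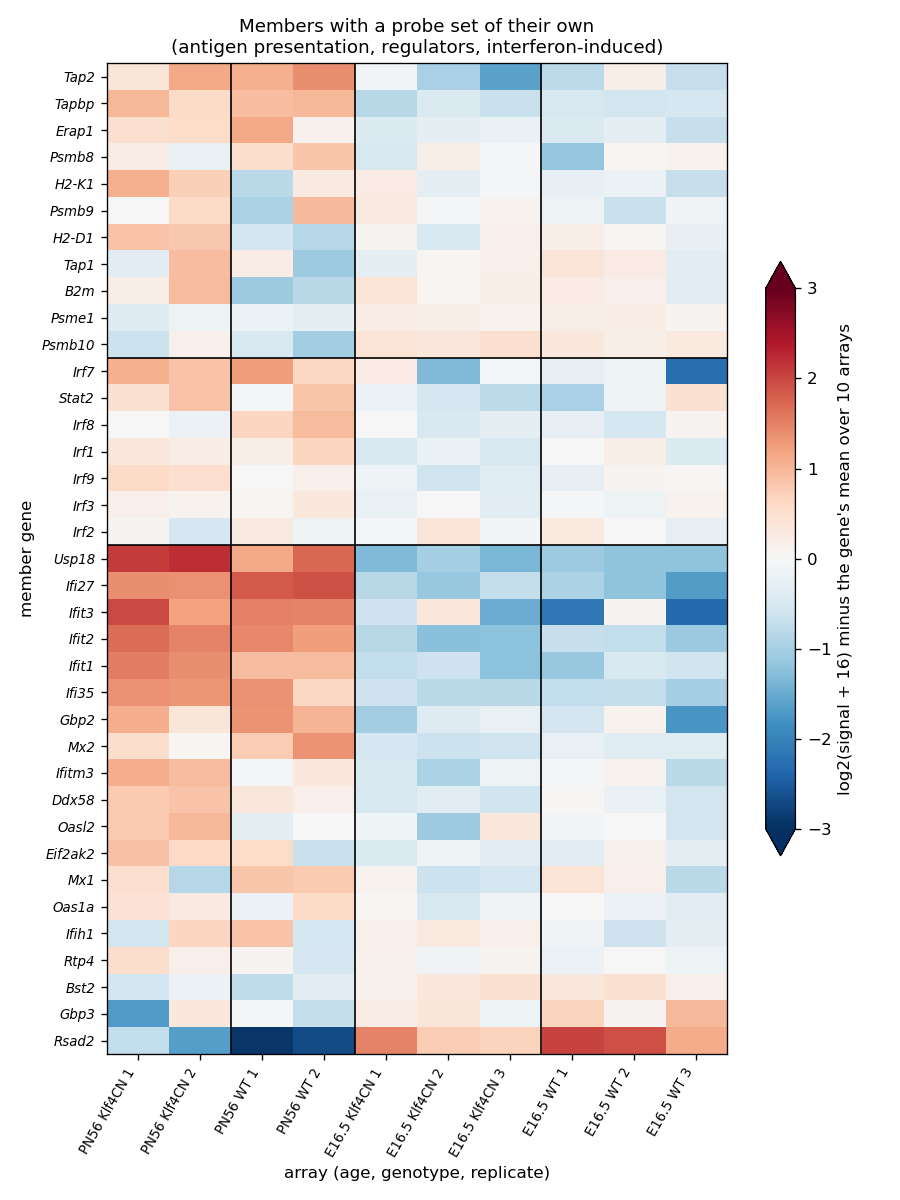
Each of the 37 members with a probe set of its own (rows, in the 3 groups) on each of the 10 arrays (columns, PN56 Klf4CN, PN56 WT, E16.5 Klf4CN, E16.5 WT), as log2(signal + 16) minus the gene's mean over the 10 arrays. Red is above and blue below that mean. Usp18, Ifi27, Ifit1, Ifit2, Ifit3 and Ifi35 are red on the 4 PN56 arrays, Rsad2 is blue on them, and B2m and H2-D1 are blue on the 2 PN56 WT arrays.

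Of the 53 tested genes of the other pathway lists, 19 were higher and 8 lower at PN56 in Klf4CN lenses (35.8% and 15.1%), against 21.6% and 30.5% of all genes. In WT lenses 18 were higher and 9 lower (34.0% and 17.0%), against 25.0% and 30.7% of all genes. Markers of other cells differed by age in both directions. Macrophage and leukocyte markers were lower at PN56 for 10 of 13 genes in Klf4CN and 12 of 13 in WT lenses, and 7 of 7 endothelial markers were lower in both. Sums of the macrophage and leukocyte markers were 2529 to 4481 in PN56 Klf4CN and 2575 to 2820 in PN56 WT lenses. At E16.5 these sums were 10794 to 13374 in Klf4CN and 8241 to 11194 in WT lenses. Cd68 was an exception in Klf4CN lenses, at 0.04. The photoreceptor markers Sag and Gnat1 were higher at PN56, by log2 4.51 and 6.83 in Klf4CN and 4.34 and 6.12 in WT lenses (limma adjusted p from 4.4e-07 to 6.2e-06). Pigment cell markers were higher at PN56 for 3 of 5 genes in WT lenses (median 2.90) and lower for 1 of 5 in Klf4CN lenses (median -0.21). The part of these cells in the members' age differences was not tested.

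Probe sets of a member did not always point the same way. Of 11 members with more than 1 single-symbol probe set above the filter, all probe sets had 1 sign for 5 members at PN56, 6 at E16.5, 8 for age in Klf4CN and 7 for age in WT lenses. At PN56 the members with mixed signs were H2-K1, Tapbp, Erap1, Rsad2, Ifi35 and Eif2ak2. At E16.5 they were H2-K1, H2-D1, Irf8, Ifi35 and Eif2ak2. For age in Klf4CN lenses they were H2-D1, Irf3 and Eif2ak2, and in WT lenses H2-D1, Erap1, Irf3 and Eif2ak2. For Irf3 the probe sets ran from -2.38 to 0.33 in Klf4CN lenses and from -1.59 to 0.92 in WT lenses.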

How the data were processed

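Lens RNA was amplified, biotin-labelled and hybridised to Affymetrix mouse 430 2 arrays, per the labels' protocols. The deposited values were linear intensities made with GCOS 1.4, per the submitters' processing notes, and each array's mean after trimming 2% at each end was 500. Of 45101 probe sets, 64 were controls, 34945 carried 1 symbol, 932 several and 9160 none, and 34741 matched RefSeq gene numbers. Log2(signal + 16) of the 10 arrays was fitted with limma 3.58.1 in R 4.3.3 with 4 group means and an intensity trend. Probe sets whose mean log2(signal + 16) lay below the 40th percentile were left out. That limit was 5.93, which converts back to a signal of 44.97. Tests were two-sided, with Benjamini-Hochberg adjustment over 13450 genes and calls under 0.05. The fit was tested on simulated data. The number of arrays limits the precision, and p-values measure the spread between pools.

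Single-array values were given for members called between genotypes, the brightest 2 of each group and those of smallest p. Members and lists were chosen with earlier results of these data known. Alternatives covered scaling, offset, filter, probe sets, trend, array weights, samples in the fit, arrays left out and a replicate block.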

Additional observations from a re-analysis of the deposited data

Results flagged for a closer look

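Of the members, 3 were flagged because the Klf4CN minus WT difference itself differed between ages in the limma fit of all 10 arrays. The PN56 minus E16.5 value was 1.33 on the log2 scale for B2m, 1.62 for H2-D1 and 2.32 for Rsad2. For B2m and H2-D1 this came with PN56 WT signals below those of the other 3 groups. For Rsad2 it rested on a PN56 WT signal below the offset, and the 2 other probe sets gave 0.19 and -0.16.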

How the results depend on the processing

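At E16.5, 0 members were called under every alternative. The 4 members called at PN56 became 1 with averaged probe sets, 8 with every probe set tested by itself, 2 without the intensity trend and 2 with array weights, and 3 to 5 with 1 array left out. The 3 members whose genotype difference changed with age became 1 with averaged probe sets, without the trend or with array weights, and 1 to 4 with 1 array left out. They became 1 without E16.5 Klf4CN replicate 2 or 3, E16.5 WT replicate 1 or 2, or PN56 WT replicate 1. The 21 age calls in Klf4CN and 18 in WT lenses became 32 each with every probe set, and 14 to 21 and 15 to 19 with 1 array left out. Over all genes tested, the 1750 calls at PN56 became 1034 with averaged probe sets, 1165 without the trend and 637 with array weights. They became 2425 with every probe set. The 644 calls for the difference became 294, 201 and 322 in the first 3 of these settings. The 7004 age calls in Klf4CN and 7483 in WT lenses became 11552 and 12331 with every probe set. With every probe set a gene counts once per probe set, and for the other settings the cause was not tested. With 1 PN56 array left in a group, it was assumed to vary like the other groups. For the members named with single-array signals, no called value changed sign under these settings, but single other probe sets had the opposite sign for Rsad2 and H2-K1 at PN56 and H2-D1 by age. The alternatives were not listed gene by gene for the other members, and a probe set of Erap1 (age in WT) and 1 of Eif2ak2 (age in Klf4CN) ran against the called value.

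Genotypes shared replicate numbers. At E16.5, deviations of same-numbered arrays had correlations of 0.27, 0.24 and 0.05, against -0.28 to 0.06 for arrays of different number. At PN56, with 2 arrays per group, every such correlation was 0.04 or -0.04 by construction, so it cannot decide the question. The sample titles give only a number, and whether same-numbered arrays were prepared together was not tested. With the replicate number as a block, called members were 0 at E16.5, 4 at PN56, 3 for the difference, 16 for age in Klf4CN and 17 in WT lenses. Over all genes tested the calls were 0, 1685, 543, 6688 and 7136 in the same order. Dim members limit what the arrays can show.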

Other observations

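Class II molecules present peptides from outside the cell and are typical of professional antigen-presenting cells. The chains H2-Aa and H2-Ab1 were higher at PN56 in both genotypes by limma, while H2-Eb1 and Cd74 were higher in Klf4CN lenses and not past the test in WT lenses (0.37 and 0.59, limma adjusted p = 0.42 and 0.22). H2-Aa had signals of 948.6 and 361.5 in PN56 Klf4CN lenses against 14.2, 29.8 and 43.8 in E16.5 Klf4CN lenses (log2 difference 3.79, limma adjusted p = 3.4e-05). In WT lenses H2-Aa had 432.5 and 454.5 at PN56 against 70.9, 35.3 and 19.3 at E16.5 (3.09, limma adjusted p = 0.00017). Cd74, the chain that guides class II molecules, had signals of 635.8 and 257.2 in PN56 Klf4CN and 246.3 and 261.7 in PN56 WT lenses, against 130.8, 64.3 and 149.6 in E16.5 Klf4CN and 183.2, 132.4 and 180.4 in E16.5 WT lenses. The H2-Aa and Cd74 ages did not overlap in either genotype, and Cd74 overlapped between genotypes at PN56. A call in 1 genotype alone is not a test of the difference between genotypes.

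The probe set shared by Isg15 and Gm9706 had signals of 157.8 and 181.1 in PN56 Klf4CN and 148.1 and 101.6 in PN56 WT lenses, against 116, 44.6 and 111.8 in E16.5 Klf4CN and 158.3, 107.3 and 126.4 in E16.5 WT lenses. The probe set shared by Psme2 and Psme2b had 2092.1 and 2275.4 in PN56 Klf4CN and 1961.8 and 1738.1 in PN56 WT lenses, and its 6 embryonic signals ran from 1554.7 to 1988.3. Neither was tested as a member, since the signal cannot be assigned to 1 gene. Mx2, below the filter, had signals of 34.2 and 20.6 in PN56 Klf4CN and 42.9 and 72.4 in PN56 WT lenses, against 6.5 to 8.8 in E16.5 Klf4CN and 11.1 to 13.8 in E16.5 WT lenses. Ifih1, also below the filter, ran from 21.8 to 89.5 over all 10 arrays.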
